A study of Drosophila melanogaster with 2 samples.

Results

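Homeobox genes encode transcription factors that bind DNA through a homeodomain. They include the Hox genes, which give body segments their identity along the head-to-tail axis, and many genes that specify cell types such as neurons, muscle and gut. The binding of 1 such factor, toe (twin of eyegone), a Pax-like homeodomain protein that acts in eye development, was examined at 53 other homeobox genes. These genes were chosen by name from the families out of 13968 protein-coding genes. No cut on their values was used, but earlier results of these data were known. They fell into the Hox genes (8 genes), the paired class (10), the LIM class (4), the NK class (8), the Iroquois genes (3), other genes of the Antennapedia class (10), other TALE genes (3), CUT genes (2), POU genes (3) and zinc finger homeobox genes (2).

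Chromatin was taken from whole adult male Drosophila melanogaster of a transgenic line (toe-GFP) that makes toe with a green fluorescent protein at its C-terminus. It was precipitated with an antibody against that protein and sequenced. The 1 group had 2 biological replicates, numbered 2 and 3, whose age the labels give as unknown. There was no second condition, so no comparison between conditions could be made. Many homeobox genes are known to be kept silent by Polycomb group proteins in most cells and active in a few cell types. Whole flies were used, so binding in a few cells and weak binding in many cells cannot be told apart, and no expression was measured against which the tissue could be checked.

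The authors' list of reproducible peaks on genome build dm6 held 3469 peaks, with signal values from 58.2 to 3277.7 and a median of 102. Signal is the authors' own peak value, and the read depth behind it is unknown. A pooled list of 30000 regions, which holds peaks and background together, was used for weaker regions. The reproducible peaks were its 3469 highest regions. A peak was called a promoter peak where its summit lay no more than 500 bp from any of the start sites annotated for the gene. A body peak means a summit between the gene's start and end, and a flanking peak means a summit up to 10 kb outside the gene. Nothing was tested between gene groups, and shares are set beside those of all protein-coding genes as descriptions.

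Strong toe peaks were scarce at homeobox promoters. Of the 53 genes, 5 (9.43%) had a reproducible promoter peak, against 19.3% of all protein-coding genes. They were Dll, tin, ro, C15 and Ptx1. A body peak was found in 8 genes (15.1%, against 9.63% of all), namely Scr, Antp, Abd-B, otp, vnd, cad, ct and zfh1. That order did not hold without replicate 2 (5 genes, 9.43%, against 10% of all) or among the 1734 strongest peaks (2 genes, 3.77%, against 5.15%). A peak anywhere in the gene or within 10 kb of it was found in 20 genes (37.7%, against 55.2% of all), and 33 genes had none. The promoter and body peaks lay at different genes, so 13 had either. With shares this low few genes would have both, and the share of all genes with either is not given here.

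**Figure D1:**
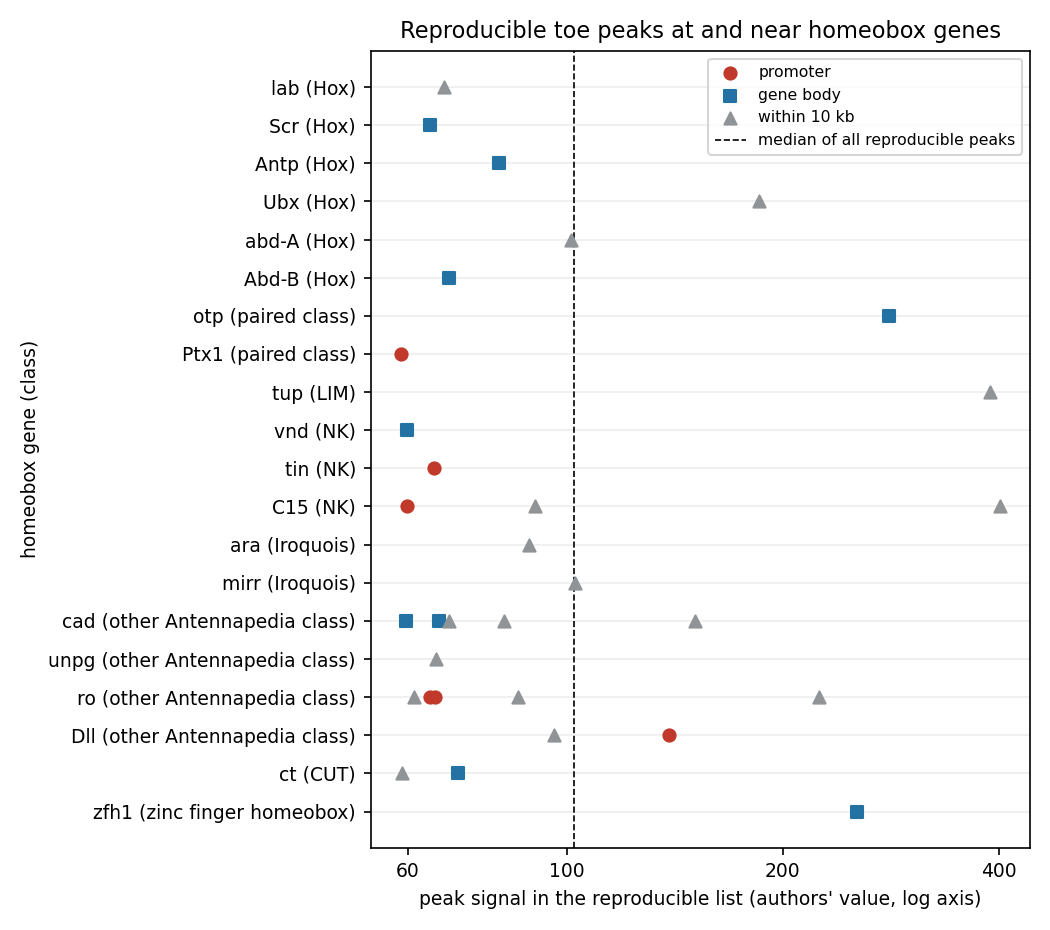
Signal of each of the 32 reproducible peaks in or within 10 kb of a homeobox gene, 1 row per gene with its class, on a log axis, with the place of the summit given by the marker. Of the 6 promoter peaks, 1 (Dll) lies right of the dashed line, the median of all reproducible peaks (102).

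The peaks that were found were mostly weak. The 6 promoter peaks of the 5 genes had signals from 58.6 to 138.7 with a median of 64.9, where the promoter peaks of all protein-coding genes had a median of 115. Of the 32 reproducible peaks in or near the 53 genes, 9 had a signal above the median of the whole list, and 21 (65.6%) had a q-value under 0.05, as did 86.8% of all reproducible peaks. In all, 6 summits lay at promoters of the 53 genes, 9 in gene bodies and 17 in the flanks.

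The highest promoter peak belonged to Dll (Distal-less), which specifies the outer parts of legs and antennae. It lay on chromosome 2R from 24814542 to 24814961, with its summit 70 bp upstream of the start site, a signal of 138.7 and rank 1175 in the reproducible list. The region over it had a signal of 66.6 in replicate 2 (rank 1656) and 70.0 in replicate 3 (rank 1005), so it was among the 3469 strongest regions of each. A flanking peak of Dll lay 1098 bp upstream with a signal of 95.8, from signals of 37.0 in replicate 2 and 51.3 in replicate 3.

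The other promoter peaks lay close to the weakest end of the reproducible list and none of them had a q-value under 0.05. At tin (tinman), which specifies the heart, the peak on chromosome 3R from 21378550 to 21378969 had its summit 217 bp upstream and a signal of 65.3. Its region ranked 2686 in replicate 2 (signal 44.8) and 8289 in replicate 3 (19.0), so it was among the first 3469 regions of replicate 2 and not of replicate 3. C15 (clawless), which acts at the tip of the leg, showed the other order. Its peak (3R, 21499445 to 21499864, 331 bp upstream, signal 59.9), also less than 500 bp from the start of lncRNA:CR44032, ranked 4626 in replicate 2 (28.4) and 3027 in replicate 3 (32.4).

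Ptx1, a paired-class gene of the Pitx family, had its summit 63 bp upstream of the start site (3R, 30912481 to 30912900, signal 58.6). The region ranked 3400 in replicate 2 (signal 37.0) and 5847 in replicate 3 (22.1). With rank 3431 of 3469 it was near the edge of the reproducible list. At ro (rough), which acts in photoreceptor patterning in the eye, a pair of overlapping peaks had summits 280 bp and 493 bp upstream and signals of 65.5 and 64.4. Both lay over 1 region of each replicate list (42.8, rank 2864, in replicate 2 and 25.8, rank 4369, in replicate 3). T48 starts less than 500 bp from both summits, and the second summit was nearer to T48 (70 bp) than to ro.

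Sequences of 201 bases centred on the summit are shown for the promoter peaks of tin, C15 and Ptx1, on the strand of the gene and on dm6, since no other protein-coding gene starts within 500 bp of these summits. That of Dll is not shown here. Capitals mark matches to 6 searched motifs on either strand, namely the homeodomain core TAATTA, the paired domain core GTCACGC, the GAGA factor core GAGAG, the core ATCGATA of the DNA replication-related element, the TATA box core TATAAA and the word ACAGTGG. Words found on the other strand appear as their reverse complement, and matches to TATAAA can overlap.
tin, chr3R:21378660-21378860, plus strand: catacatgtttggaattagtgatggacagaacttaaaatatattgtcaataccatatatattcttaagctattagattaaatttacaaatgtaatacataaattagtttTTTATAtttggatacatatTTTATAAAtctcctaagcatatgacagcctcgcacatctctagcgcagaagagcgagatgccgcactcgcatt
C15, chr3R:21499555-21499755, plus strand: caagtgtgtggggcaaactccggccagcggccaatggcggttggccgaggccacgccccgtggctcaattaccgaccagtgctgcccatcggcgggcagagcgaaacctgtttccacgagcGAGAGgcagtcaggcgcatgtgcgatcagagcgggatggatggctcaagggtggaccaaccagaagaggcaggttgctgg
Ptx1, chr3R:30912591-30912791, plus strand: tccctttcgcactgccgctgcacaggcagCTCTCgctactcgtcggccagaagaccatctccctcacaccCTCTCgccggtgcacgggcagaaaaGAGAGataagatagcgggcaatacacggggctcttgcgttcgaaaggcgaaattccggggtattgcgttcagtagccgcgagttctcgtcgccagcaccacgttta
The tin window held 3 matches to the TATA box core and no other motif. The C15 window held 1 match to GAGAG and the Ptx1 window 3.

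The homeodomain core was less common at these summits than at reproducible summits in general. In the windows of 100 bp either side of the 32 summits, TAATTA occurred in 1 (3.13%), against 17.0% of all reproducible summits and 9.36% of windows at all protein-coding start sites. GTCACGC occurred in 0 of 32 windows, a count that would still allow 9.38% (taking 3 counts as the limit), and in 0.663% of all reproducible summits, so a count of 0 is near the background. ATCGATA also occurred in 0 of 32, against 10.7% of all reproducible summits. GAGAG occurred in 6 windows (18.8%, against 24.0%), ACAGTGG in 2 (6.25%, against 7.38%) and TATAAA in 9 (28.1%, against 34.3%). The share of G and C was 41.8% in these windows and 37.6% over all reproducible summits. Windows richer in G and C hold fewer A and T words, and their part in the low count of TAATTA was not tested.

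The 92 start sites of the 53 genes also differed in sequence from start sites in general. GAGAG lay within 100 bp of 39 of them (42.4%, against 24.9% of all protein-coding start sites) and ATCGATA of 4 (4.35%, against 12.7%). Among all protein-coding genes, a reproducible promoter peak was found in 30.3% of those with ATCGATA near a start site and in 17.1% of those without it. Of the homeobox genes, 3 had the word and 0 of these had a promoter peak, while 5 of the 50 without it did (10%). With GAGAG near a start site, 1 of 33 homeobox genes had a promoter peak (3.03%, against 23.8% of all such genes), and without it 4 of 20 did (20%, against 17.5%). The count of 1 in 33 was thus far below that of other genes with GAGAG, and the count of 4 in 20 was near the background.

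Of the 9 peaks above the median of the whole list, 2 lay in gene bodies, at otp and zfh1, 1 at a promoter (Dll) and the other 6 in flanks. In otp (orthopedia), a paired-class gene of the nervous system, a peak of 193 bases on chromosome 2R from 20884494 to 20884686 had a signal of 281 and rank 365. Its summit lay in an annotated exon, 12985 bp downstream of the nearest start site of otp and 4669 bp from that of Cib2. It had a signal of 193 in replicate 2 (rank 290) and 84.2 in replicate 3 (rank 726). In zfh1, which encodes a zinc finger and homeodomain repressor, an intronic peak (3R, 30781712 to 30781829) had a signal of 254 and rank 461. It had a signal of 137 in replicate 2 (rank 572) and 116 in replicate 3 (rank 409). Its summit lay 1491 bp upstream of the nearer of the 2 start sites of zfh1. These were the only body peaks of the 53 genes among the 1734 strongest reproducible peaks.

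The remaining body peaks were weak, with signals from 59.6 to 80.5. cad (caudal), which acts in the posterior embryo and in the gut, held a pair of intronic peaks (59.6 and 66.4) and had 3 more in its flanks. The highest of these (150.7) lay 8534 bp upstream of cad and 1897 bp from a start site of dia. vnd, which patterns the ventral nerve cord, had a peak 1030 bp downstream of a start site (59.9), and ct (cut), which acts in sense organs, had 1 that lay 19578 bp downstream (70.6). In replicate 3 the regions at vnd and ct ranked 9753 and 8610, and in replicate 2 they ranked 3359 and 2146. Of the 9 body summits, 8 lay in introns and the 1 in otp lay in an exon.

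Hox genes had no reproducible promoter peak (0 of 8, a count that would still allow 37.5%). Body peaks were found in Scr (64.4), Antp (80.5) and Abd-B (68.6), and flanking peaks at lab (67.4), Ubx (186) and abd-A (101). pb and Dfd had none within 10 kb. The Antp peak, in a gene that specifies the second thoracic segment, lay 20305 bp downstream of a start site, with a signal of 55.0 in replicate 2 (rank 2106) and 32.4 in replicate 3 (rank 3021). The Scr peak lay near start sites of lncRNA:CR45903 and lncRNA:CR45904. The Abd-B peak, in the most posterior Hox gene, lay 1499 bp from a start site. Its region ranked 3721 in replicate 2 and 4025 in replicate 3, outside the first 3469 of either.

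The window at the summit in zfh1 is shown with that in Antp because they are the 2 of the 32 windows that hold ACAGTGG, in Antp as its reverse complement.
zfh1, chr3R:30781667-30781867, plus strand: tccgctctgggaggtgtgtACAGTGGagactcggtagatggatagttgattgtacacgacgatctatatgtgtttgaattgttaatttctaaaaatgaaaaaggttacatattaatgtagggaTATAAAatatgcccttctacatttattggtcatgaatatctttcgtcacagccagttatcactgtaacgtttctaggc
Antp, chr3R:6912435-6912635, minus strand: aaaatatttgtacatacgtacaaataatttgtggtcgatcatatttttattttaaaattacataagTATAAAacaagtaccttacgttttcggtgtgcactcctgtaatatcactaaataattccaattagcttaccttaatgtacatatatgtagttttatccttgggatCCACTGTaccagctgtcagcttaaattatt
Each also held 1 match to TATAAA.

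Flanking peaks at Hox genes often belonged to other genes. The Ubx peak, 9459 bp beyond the gene, lay 160 bp from the start site of CG10324 and, less than 500 bp away, that of CCT3, a chaperonin subunit gene. The lab peak lay 163 bp from the start site of CG1307. The abd-A peak lay 8350 bp downstream of the gene with the nearest protein-coding start site, that of Glut3, 10553 bp away, and had a signal of 58.7 in replicate 2 (rank 1941) and 38.7 in replicate 3 (rank 2363).

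Among the 3 Iroquois genes, which pattern the dorsal eye and the notum, no promoter or body peak was found. The nearest miss was mirr (mirror), whose peak on chromosome 3L from 12692918 to 12693337 had its summit 511 bp upstream of the start site, just outside the promoter window. It had a signal of 103 and rank 1720, from 56.2 in replicate 2 (rank 2055) and 45.0 in replicate 3 (rank 1926). It was thus higher than 5 of the 6 promoter peaks counted above. In replicate 2 the summit of its region lay within 500 bp of the start site. For ara the nearest summit, 8091 bp upstream, lay 39 bp from the start site of sowah (signal 88.5). caup had no summit within 10 kb, and the nearest lay 37050 bp from its start site.

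The NK class had the most promoter peaks beside the other Antennapedia class, with 2 of 8 genes (tin and C15) against 2 of 10 (ro and Dll). The paired class had 1 of 10 (Ptx1), and the LIM class 0 of 4 (75% still allowed). At promoters the share over all protein-coding genes was 19.3%. Within 10 kb, where it was 55.2%, 6 of 8 Hox genes, 2 of 3 Iroquois genes, 3 of 8 NK genes, 2 of 10 paired-class genes and 1 of 4 LIM genes had a peak. The median distance from a start site to the nearest reproducible summit was 18974 bp for the Hox genes, 8091 bp for the Iroquois genes, 20346 bp for the NK genes, 31450.5 bp for the paired class and 44271 bp for the LIM genes. The classes hold 2 to 10 genes and differ in length, from a median of 30563 bp for the Hox genes to 10675.5 bp for the NK genes among these 5, and many sit side by side on a chromosome, so their counts do not rank the classes. Over all 53 genes the median was 23617 bp and over all protein-coding genes 9479 bp. The longest distance, 391863 bp, was at scro.

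The highest peaks near NK and LIM genes were those of neighbours or lay between genes. At C15 a flanking peak of signal 401 (rank 175), 7573 bp beyond the gene, had its summit 541 bp from a start site of sp3. It had a signal of 251 in replicate 2 (rank 166) and 155 in replicate 3 (rank 207). At tup (tailup), a LIM gene of motor neurons and heart, a peak of signal 389 (rank 185) lay 114 bp from the start site of CG10602. At ro the highest of 3 flanking peaks (225) lay 14 bp from the start site of ms(3)K81, and another (85.5) 115 bp from that of CG5500. The peak near unpg (65.7) lay 214 bp from the start site of VhaAC45. Of the 26 summits that were not at a homeobox promoter of the list, 8 were promoter peaks of another protein-coding gene and 17 had no start site of any gene that near.

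**Figure D2:**
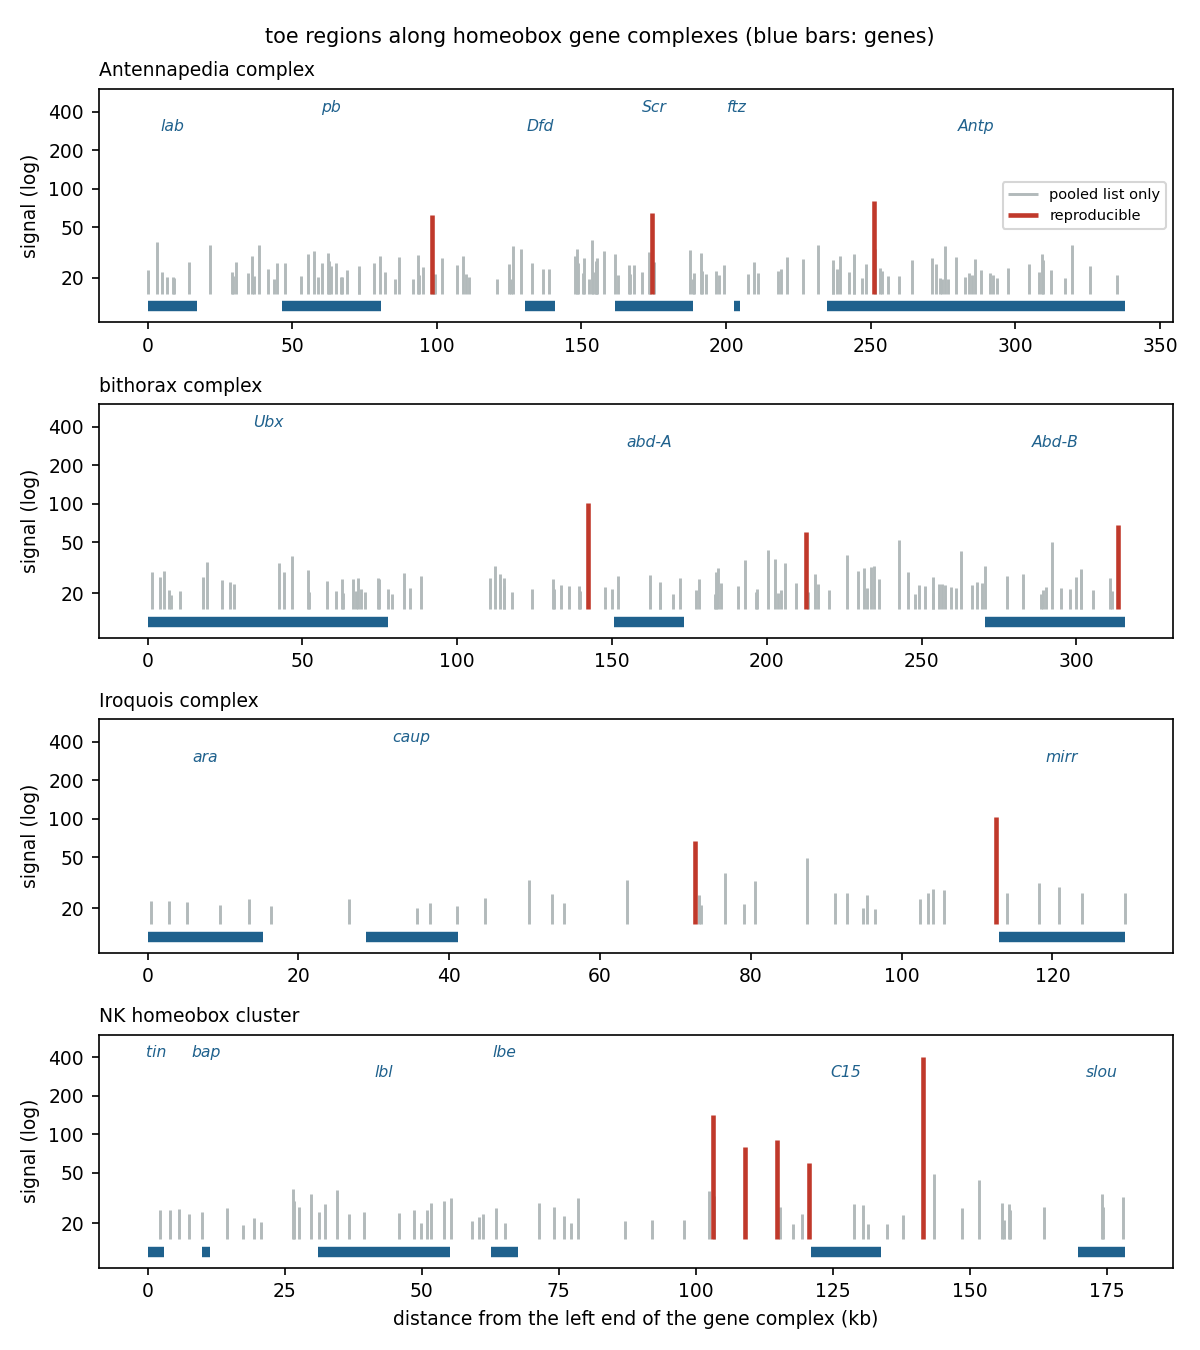
Signal (log axis) of pooled regions along 4 gene complexes against distance from the left end of each complex in kb, with reproducible peaks in red, other pooled regions in grey and the homeobox genes as blue bars. Reproducible peaks are few in the Antennapedia and bithorax complexes (3 each) among 139 and 114 pooled regions.

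The Antennapedia and bithorax complexes, where the Hox genes lie, held few strong peaks and many weak regions. The Antennapedia complex, on 3R from 6661427 to 6999228, held 3 reproducible peaks in 338 kb, or 0.888 per 100 kb, where the chromosomes 2L, 2R, 3L, 3R, 4 and X together held 2.59 per 100 kb. One of the 3 lay at the promoter of bcd (61.7), a further homeobox gene. The bithorax complex (3R, 16656623 to 16972236) held 3 in 316 kb, or 0.951 per 100 kb. Pooled regions were denser there than over the chromosomes, with 41.1 per 100 kb in the Antennapedia complex and 36.1 in the bithorax complex, against 22.4. The Iroquois complex held 2 reproducible peaks (1.54 per 100 kb) and 28.6 pooled regions per 100 kb.

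The NK homeobox cluster, where tin, bap, lbl, lbe, C15 and slou lie together, held 5 reproducible peaks in 178 kb (2.81 per 100 kb), near the level of the chromosomes. All 5 lay between lbe and slou around C15, 1 of them at the promoter of Fancm (142), a DNA repair gene. The interval begins at the start of tin, so the promoter peak of tin, 217 bp further left, is not among the 5. No reproducible peak lay between the ends of en and inv (54 kb), of nub and pdm2 (98.7 kb), or of gsb and gsb-n (24.3 kb). These intervals held 16, 41 and 5 pooled regions.

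A longer gene body has more room for summits, and these homeobox genes are long. Their median length was 16031 bp, against 2164.5 bp for all protein-coding genes. Among genes of 20 kb and over, 5 of 21 homeobox genes (23.8%) had a body peak, against 35% of all genes of that length. Among those of 5 to 20 kb, 3 of 18 did (16.7%, against 21.5%), and among those under 5 kb, 0 of 14 (against 4.36%), where up to 21.4% would still be allowed. The higher share of body peaks over all 53 genes (15.1% against 9.63%) was not seen within any of the 3 length classes. Whether gene length accounts for that share was not tested. Promoter peaks were found in 1 of 21 of the longest (4.76%, against 27.4%), in 2 of 18 (11.1%, against 27.6%) and in 2 of 14 of the shortest (14.3%, against 16.6%).

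**Figure D3:**
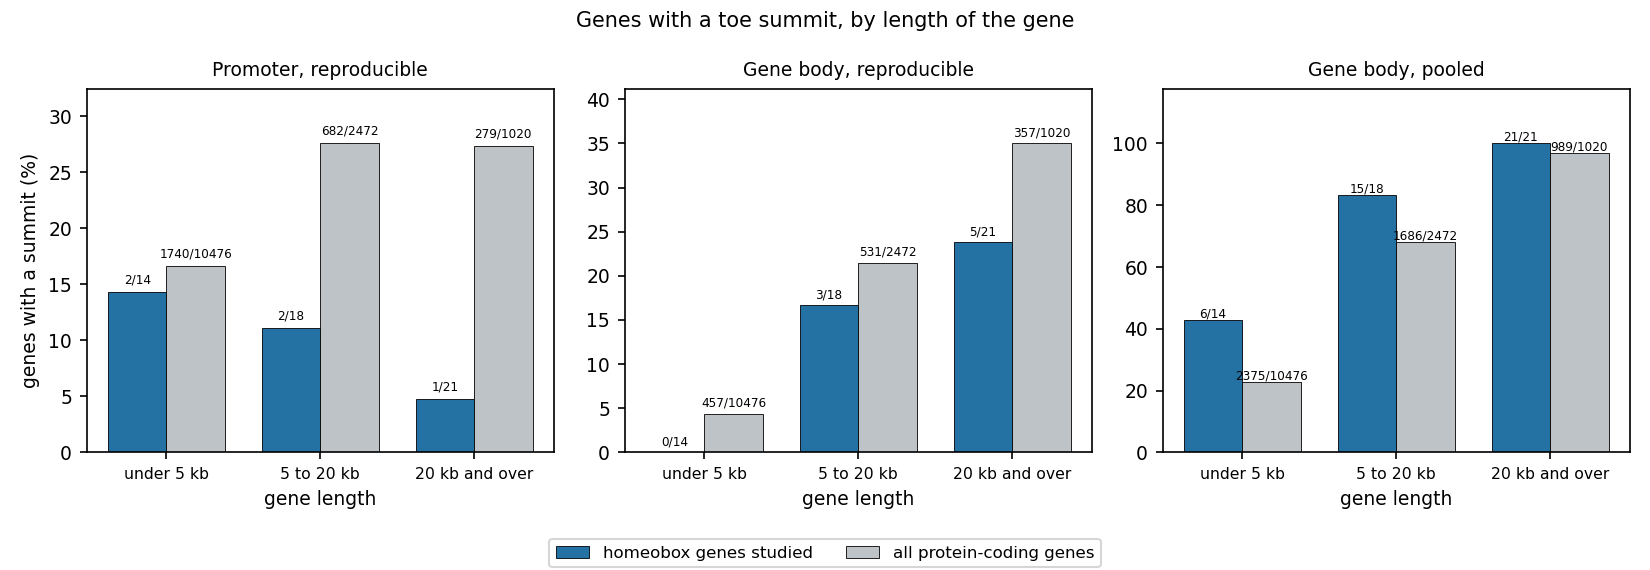
Share of genes (percent) with a reproducible promoter peak, a reproducible body peak or a pooled body region, by length of the gene, for the 53 homeobox genes (blue) and all protein-coding genes (grey), with counts above the bars. Blue bars are below grey ones for reproducible peaks and above them for pooled regions in each length class.

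The same order held for start sites. Of homeobox genes with 1 start site, 4 of 31 (12.9%) had a promoter peak, against 14.6% of all genes with 1. Of those with 2 or more, 1 of 22 did (4.55%), against 32.4%. The first share was near its background and the second far under it. Homeobox genes also have fewer neighbours, with a median of 1 other protein-coding gene starting in the gene or within 10 kb, against 5 for all genes. The 90 neighbours of the 53 genes had promoter peaks in 15 cases (16.7%), near the 19.3% of all genes. Whether the lack of neighbours sets the share of genes with a peak within 10 kb was not tested.

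Weak regions were as common at homeobox genes as elsewhere or more so. In the pooled list, 29 of the 53 genes (54.7%) had a region at a start site, against 41.9% of all protein-coding genes. By the strongest such region, 12 genes (22.6%) fell below the reproducible list but within rank 10000, where 10.5% of all genes did. A further 12 (22.6%, against 12.1%) had only a region further down the list, and 24 (45.3%) had none. A gene with a reproducible promoter peak cannot fall in these lower groups. Counted from the top of the list to rank 10000, 17 genes (32.1%) had a promoter region, near the 29.8% of all genes. In gene bodies, 42 of 53 genes (79.2%) held a pooled region, against 36.2% of all genes, most of which are shorter. By length, 6 of 14 did under 5 kb (42.9%, against 22.7%) and 15 of 18 at 5 to 20 kb (83.3%, against 68.2%). At 20 kb and over 21 of 21 did (100%), near the 97.0% of all such genes. Among genes with 2 or more start sites the share with a pooled promoter region was 63.6%, near the 59.3% of all such genes, and with 1 start site it was 48.4% against 35.6%.

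**Figure D4:**
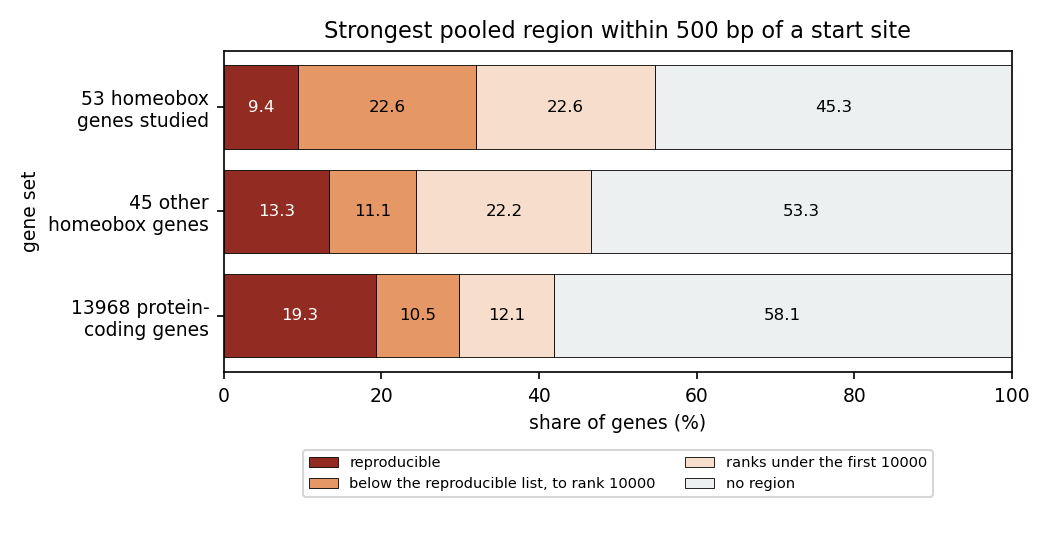
Share of genes (percent) by the rank of their strongest pooled region within 500 bp of a start site, for the 53 homeobox genes studied, 45 other homeobox genes and all protein-coding genes. The darkest band, reproducible peaks, is 9.43% wide for the homeobox genes studied and 19.3% for all genes, and the next band 22.6% and 10.5%.

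Counted over sequence, the same contrast appeared. Within the bodies of the 53 genes (1065 kb in all) there were 0.845 reproducible and 29.8 pooled summits per 100 kb, against 2.06 and 20.1 in the bodies of all protein-coding genes. Leaving out summits no more than 500 bp from any start site, the densities were 0.751 and 27.4 in the homeobox genes and 0.978 and 15.9 in all. Away from start sites the reproducible densities thus differed less, by counts of 8 summits in the homeobox genes and 890 in all.

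The homeobox promoters just below the reproducible list, whose lowest signal was 58.2, were those of scro (56.8, rank 3582 in the pooled list), nub (53.3, rank 3848), zfh2 (50.7, rank 4097), vvl (50.4, rank 4123), en (45.6, rank 4706) and ct (44.9, rank 4795). scro, an NK gene of the brain, had a promoter region of signal 43.2 in replicate 2 (rank 2830) and none within the 30000 of replicate 3. nub, a POU gene of the wing, had 28.3 in replicate 2 (rank 4649) and 28.2 in replicate 3 (rank 3764). zfh2 had 17.7 in replicate 2 (rank 10778) and 33.9 in replicate 3 (rank 2849), and en, which marks the posterior compartment of segments, 18.1 (rank 10193) and 32.5 (rank 3017). So these promoters were not high in both replicates, and which replicate was the higher one differed between them. Promoters of Hox genes lay further down, the highest being Scr (33.2, rank 8194) and pb (29.9, rank 10548).

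**Figure D5:**
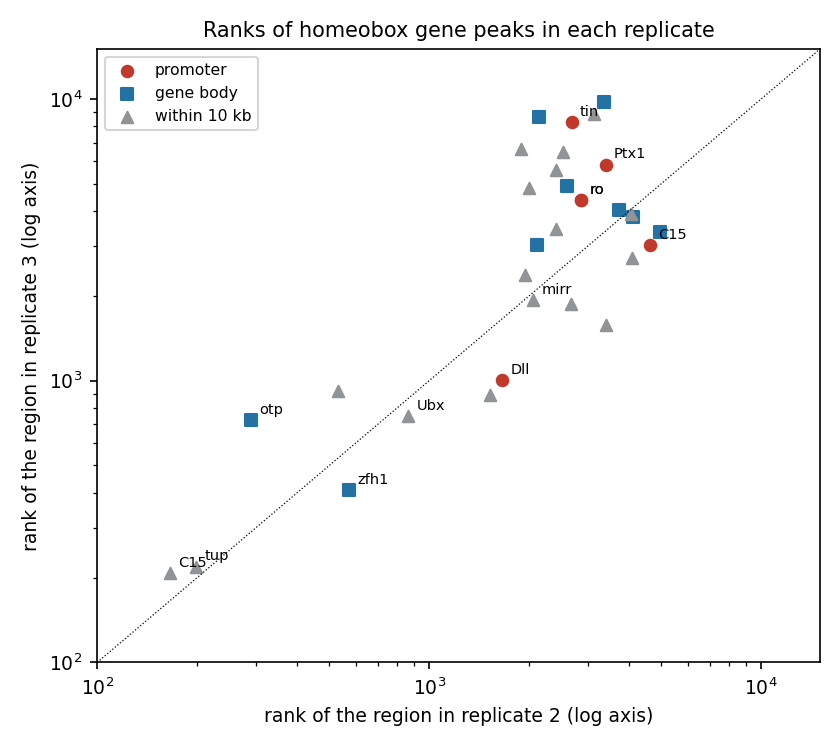
Rank in replicate 2 against rank in replicate 3 (both log axes, rank 1 is the strongest) of the region over each of the 32 reproducible peaks, with the place of the summit given by the marker. The highest peak at each of C15, tup, zfh1, otp, ro and Ubx ranks under 1000 in both, and the peaks of tin and Ptx1 rank lower in replicate 3. The name ro is written at its promoter peaks, not at its highest peak.

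All 32 peaks had a region in both replicate lists, which follows largely from how reproducible peaks are derived. The region was among the first 3469 in 26 cases in replicate 2, in 17 in replicate 3 and in 14 in both. It ranked higher in replicate 2 for 20 peaks and higher in replicate 3 for 12. The matching shares over all 3469 reproducible peaks were not computed, so these counts do not set homeobox peaks apart from the list. The 6 peaks with the highest signals (186 to 401) ranked under 1000 in both lists, and those further than 3469 down either list were all weaker. Signals in the reproducible list come from the same 2 replicates, so this order is not separate evidence.

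Genes of the same class, many of them duplicates that lie side by side, were compared in 10 pairs. Of these, 3 had a promoter or body peak at 1 of the genes and 0 at both, where 13 of the 53 single genes had such a peak. The matching shares over all genes and over other pairs were not computed, so the counts do not set these pairs apart. Those 3 were tin and bap (tin alone), vnd and scro (vnd alone) and zfh1 and zfh2 (zfh1 alone). en and inv had none and their strongest pooled promoter regions were 45.6 and 33.5. nub (53.3) and pdm2 (22.8) differed in the pooled list without reaching the reproducible one, while lbl (31.4) had a pooled promoter region and lbe had none. gsb and gsb-n, ara and caup, and B-H1 and B-H2 had no pooled region at a start site. vis and achi, TGIF genes that act in the testis, had none either and none in their bodies, but 58.1% of the 31-base words of vis and 44.2% of those of achi occur more than once in the genome, against a median of 0.0731% over the 53 genes. Reads from such sequence may not map to 1 place, and the authors' treatment of them was not given in the sources used here. Whether this bears on the lack of pooled regions was not tested. In the list of replicate 2 alone, achi had a promoter region (24.5, rank 5657).

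Homeobox genes outside the list were set beside these for reference. Of 45, promoter peaks were found at 6 (13.3%), namely eyg (224), ey (101), toe (92.0), Dr (71.4), bcd (61.7) and so (59.2). A body peak was found in 3 (6.67%) and a peak within 10 kb at 24 (53.3%). The promoter region share in the pooled list was 46.7%. The shares for promoter peaks and for peaks within 10 kb lay between those of the 53 genes and those of all protein-coding genes. toe, the gene of the tagged protein, was counted in these shares. Shares without toe were not computed, and whether the transgene bears on its peaks was not tested.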

How the data were processed

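Chromatin immunoprecipitation sequencing of toe-GFP was deposited as peak lists for 2 biological replicates. Per the files' notes, the authors called regions on each replicate and on both pooled, each against a control, and derived reproducible peaks by the irreproducible discovery rate. The deposited signal value is the authors' own, with a scale not given in the sources used here, and was compared only within a list. A further deposited column, taken by the usual layout of the file type as −log10 of the q-value, served to count peaks with a q-value under 0.05. The aligner and the peak caller were not given in the sources used here. Lists on dm3 were not used. No region had equal coordinates in both replicate lists (0 regions).

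Of the labelled build dm6, all regions lay within the lengths of the RefSeq sequences of the same assembly. Gene models were those of Ensembl release 115 (BDGP 6.54), and all 53 symbols matched. Coordinates count from 1. Assignment of summits was tested on simulated data with Python 3.11.15, pandas 2.3.3 and numpy 2.4.6. Motifs were searched on both strands. Named were each gene with a promoter peak, the 10 genes with the highest signal within 10 kb, all Hox and Iroquois genes, both genes of each pair, and others by count or as extremes. The genes and lists were chosen with earlier results of these data known. Classes of gene length were planned; those of start site number and of motifs, the bands of rank, and the densities in gene bodies were added after values were seen. Where a count is 0, the limit is 3 counts of the total and covers counting only. Depth is unknown.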

Additional observations from a re-analysis of the deposited data

How the results depend on the processing

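Counts of homeobox genes with peaks depended on where the lists were limited, since most of their peaks are weak. Among the 1734 strongest reproducible peaks, 1 gene had a promoter peak (Dll, against 12.7% of all protein-coding genes), 2 a body peak (3.77%, against 5.15%) and 9 a peak within 10 kb (17.0%, against 39.7%), in 1 class of genes for promoters. Pairs with a peak at either gene then numbered 1, and other homeobox genes with a promoter peak 1. With a q-value under 0.05, promoter peaks again stood at 1 gene and 1 class (17.8% of all genes), pairs at 1 and peaks in the Antennapedia complex at 1. Leaving out a replicate, promoter peaks were found at 4 to 7 genes (19.7 and 21.1% of all), body peaks at 5 to 6 genes (9.43%, against 10% of all, without replicate 2, and 11.3%, against 9.61%, without replicate 3) and promoter peaks in 3 to 5 classes. Without replicate 3, scro, mirr and vvl gained a promoter peak and C15 lost it; without replicate 2, en and zfh2 gained one, and tin, ro and Ptx1 lost it. With a promoter window of 200 bp, 2 genes (Ptx1 and Dll) had a promoter peak (3.77%, against 14.4% of all). A pooled promoter region was then found in 17 (32.1%, against 28.8%). Among the 10000 strongest pooled regions, with the window of 500 bp, 17 had one (32.1%, against 29.8%). Measured from start sites, 13 genes had a peak within 10 kb (24.5%, against 51.2% of all). With windows of 50 bp either side, TAATTA and ACAGTGG were found in 0 of the 32 windows each, a count that would still allow 9.38%. Over all reproducible summits the shares were 9.57% for TAATTA and 3.17% for ACAGTGG, so the 0 for ACAGTGG is near the background. No paired analysis was possible because there was 1 group. In all, 167 alternative values were computed, of which 115 stayed within 1.5 times the value given.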
